A study of Arabidopsis thaliana with 22 samples.

Results

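Leaves of Arabidopsis thaliana Col-0 sampled at 12 h were compared with leaves sampled at 0 h and 24 h, which are the switch points of a cycle with 12 h of light and 12 h of darkness. The comparison used 2 arrays at 12 h against 4 arrays, 2 at 0 h and 2 at 24 h, chosen by the hour in the source names, which makes 6 of the 22 arrays and 3 of the 11 hours of the series. All of these groups were the same untreated Col-0 plants at growth stage 3.90, grown in compost in a growth room, with no mutation, transgene or added agent, so the groups differed by the hour of sampling. Each sample pooled 20 plants, and each hour had 1 sample in replicate series 1 and 1 in series 2. Whether the lights came on or went off at 0 h is not stated in the labels. The series 1 titles end in 8-45 at 12 h, in 21A at 0 h and in 21B at 24 h. The title of the 24 h sample of series 2 ends in the word repeat, which no other title carries. Over the 11 hours of series 1, the numbers in the endings advance nearly in step with the hours, as times on a 24 h clock would. What these endings and the word repeat mean is not said in the labels. The values were probe set intensities of Affymetrix ATH1 arrays on a linear scale, scaled by the authors to the same mean on every array, and 22746 probe sets were compared.

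A leaf under a day of light and dark alternates between making sugar and living on stored starch. In the light, photosynthesis fills the chloroplast with starch, and in the dark starch is broken down to maltose and glucose and exported as sucrose. A circadian clock of interlocked transcription factors, which includes evening genes such as GI, times many transcripts so that they change ahead of dawn and dusk. SnRK1, a protein kinase that is active when sugar is scarce, and light-signalling factors of the HY5 type add a direct response to each change of light.

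The median intensity of the 6 arrays lay between 37.8 and 44.7. The 12 h pair of arrays correlated with r = 0.961 over probe sets on the log2(intensity + 4) scale. The 8 pairs of a 12 h array with a 0 h or 24 h array gave r between 0.926 and 0.939, and the 6 pairs within 0 h and 24 h gave 0.960 to 0.978. Probe sets are not independent replicates, so these are descriptions. Actin signal from the 3′ end over that from the 5′ end, a sign of RNA and labelling quality, was 1.87 and 4.01 on the 12 h arrays, 1.62 and 2.50 on the 0 h arrays, and 1.67 and 4.15 on the 24 h arrays. A second actin control gave a ratio of 9.72 on the 24 h array of series 2, against 3.02 to 4.57 on the other 5 arrays. The part of these ratios in the results was not tested, and 3548 probe sets passed an adjusted p of 0.05 in limma without the 24 h array of series 2, against 4147 with it. The 6 leaf marker genes with a probe set summed to 21581 and 22210.1 at 12 h, against 14606 to 20041 at 0 h and 24 h, and no single one fell below 1258. The 3 root markers PYK10, EXPA7 and EXPA18 summed to between 49.4 and 60 at 12 h, against 43.4 to 74.8. No pollen or seed marker of the list had a named probe set.

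At 12 h, 4147 of the 22746 probe sets (18.2%) differed from the mean of 0 h and 24 h at an adjusted p under 0.05 in limma, a linear model over all 22 arrays with the replicate series as a block. Of these, 1936 were higher at 12 h (8.51%) and 2211 were lower (9.72%), and such probe sets are said to be called below. Both 12 h arrays stood above all 4 arrays of 0 h and 24 h for 1804 of the 1936 (7.93% of all probe sets) and below them for 1992 of the 2211 (8.76%). Over all probe sets and with no test, 3156 (13.9%) stood above and 3631 (16%) stood below. Without the replicate block, the counts were 2695 in all and 1359 lower. Leaving out the 12 h array of series 2 gave 2656 in all, 1283 higher and 1373 lower, and leaving out the 12 h array of series 1 gave 1357 lower. In bulk leaf samples, fewer cells of a type and less RNA per cell cannot be told apart, here and in every result that follows.

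**Figure D1:**
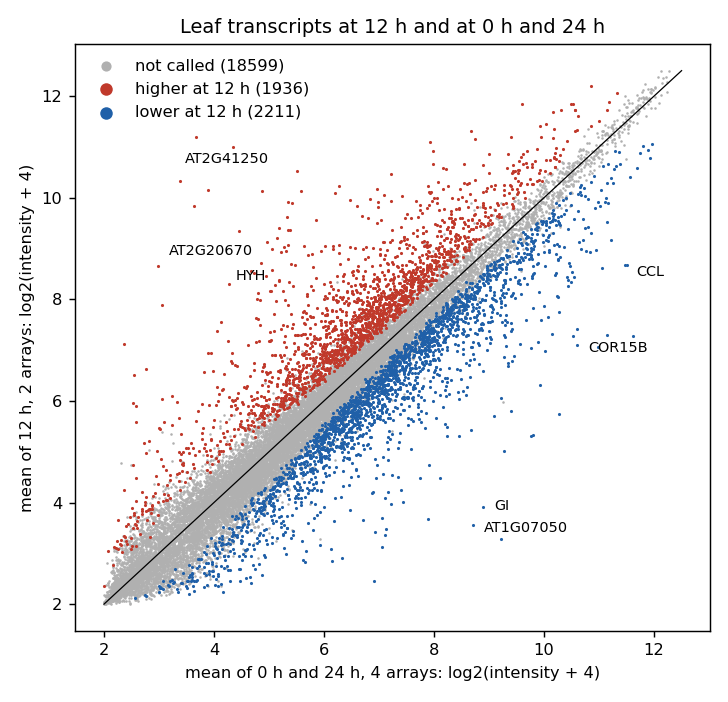
Each point is 1 of 22746 probe sets, with the mean of the 2 arrays at 12 h on the vertical axis and the mean of the 4 arrays at 0 h and 24 h on the horizontal axis, both as log2(intensity + 4). The 1936 probe sets called higher at 12 h lie above the line of equality and the 2211 called lower lie below it, with GI and AT1G07050 far below and AT2G41250 and AT2G20670 far above.

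A called difference of at least 2-fold (1 on the log2 scale) was seen for 801 probe sets higher and 802 lower at 12 h, together 7.05% of those tested. At least 8-fold were 61 higher and 39 lower, and at least 16-fold 22 higher and 11 lower. The median log2 difference was 0.90 over the called higher, -0.83 over the called lower and -0.03 over all probe sets. Bright probe sets were called more often than dim ones. In 5 equal classes of all probe sets by mean intensity, 3.12% of the dimmest class and 38.6% of the brightest class were called. Of the 13356 genes with a named probe set, taking 1 probe set per gene, 991 were higher (7.42%), 1163 were lower (8.71%) and 2154 were called in all (16.1%). The counts over gene lists below stand beside these shares, and a share near them is no result about a list.

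The levels at 0 h and 24 h lay close to each other. No probe set was called at 24 h against 0 h in limma, where 1400 of 22746 (6.15%) had an unadjusted p under 0.05 and the smallest adjusted p was 0.499. A difference of at least 1 on the log2 scale, whatever its test, was reached by 372 probe sets (1.64%) at 24 h against 0 h, and by 1782 (7.83%) at 12 h against both. Leaving out the 24 h array of series 1 gave 25 called probe sets at 24 h against 0 h, and leaving out the 0 h array of series 1 gave 1. Taken singly, 12 h against 0 h gave 3190 called probe sets (14%) and 12 h against 24 h gave 3213 (14.1%), and these comparisons share the 12 h arrays. Without the replicate block they gave 1951 and 1955. Leaving out the 0 h array of series 1 or of series 2 gave 1831 and 2008 at 12 h against 0 h, and leaving out the 24 h array of series 1 or of series 2 gave 2106 and 1967 at 12 h against 24 h.

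The other hours entered the fit for its spread but not the difference, and their levels are described here. Hours are those of the source names. For the 8 h and 16 h samples the age label gives an earlier hour, so their place in time is uncertain here and below. For the 801 probe sets at least 2-fold higher at 12 h, the distance from the mean of 0 h and 24 h to 12 h was set to 100%. Their median position was 29% at 1 h, 28% at 2 h, 37% at 4 h and 62.9% at 8 h, and after 12 h it was 68.4% at 13 h, 58.4% at 14 h, 45.9% at 16 h, with 13.9% by 20 h. The 802 probe sets that were lower stood at a median of 22.4% at 1 h, 29.3% at 2 h, 37.5% at 4 h, 56.3% at 8 h, 82.7% at 13 h, 60.7% at 14 h, 40.4% at 16 h and 7.55% at 20 h. Both medians thus stood near the 0 h and 24 h level again at 20 h, while single probe sets differed. At 20 h, 121 of the 801 (15.1%) and 111 of the 802 (13.8%) were still past the midpoint of the distance. In the other direction, 139 of the 801 (17.4%) had their lowest mean of the day at 20 h, and 224 of the 802 (27.9%) their highest. Of the 801, 424 (52.9%) had their highest mean of the day at 12 h and 159 at 13 h. Of the 802, 437 (54.5%) had their lowest mean at 12 h, while 138 had it at 13 h and 122 had it at 14 h. The arrays at 12 h, 0 h and 24 h chose these sets for a wide difference and also set the 100%. This choice can place the other hours below 100%, so the medians and the share with an extreme at 12 h are descriptions.

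**Figure D2:**
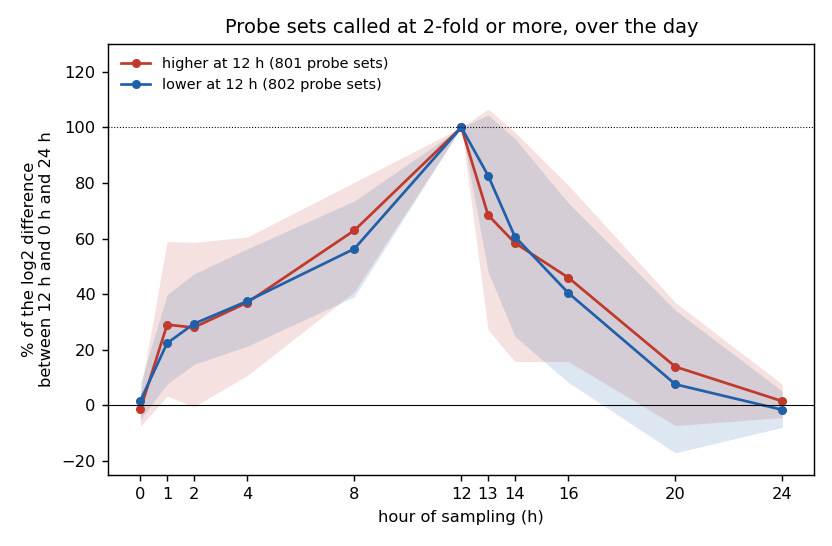
The horizontal axis is the hour of sampling by source name. The vertical axis is the position of a probe set on the log2 scale, between its level at 0 h and 24 h (0%) and its level at 12 h (100%). Lines are medians over the 801 probe sets higher and the 802 lower at 12 h and bands run from the lower to the upper quartile. Both medians stand above 55% at 8 h and below 15% at 20 h.

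By the fitted difference, the clock gene GI had the widest fall at 12 h, and the light-signalling gene AFR the widest rise, of the 285 measured genes on the lists. GI encodes a protein of the evening part of the clock that also promotes flowering in long days, and it gave 2.2 and 20 at 12 h, against 399.8 and 477 at 0 h, and 484 and 519 on the 24 h arrays. The 12 h arrays lay far below the other 4, and GI was at least 16.0-fold lower at 12 h, where its signal was not above that of the brightest bacterial control probe set of the 6 arrays. The bound sets the group with signal against that control, at 29.2, and is used in this way below. The fitted log2 difference was -5.27 ± 0.48 (SE, adjusted p = 2.6e-06). The means of GI at 4 h and 8 h were also below that control, and it stood at 84.0 at 13 h and 657 at 20 h.

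COR27, a cold-regulated repressor of clock genes, read 48.9 and 51.8 at 12 h, against 157 and 280.4 at 0 h, and 202 and 267 on the 24 h arrays. The groups did not overlap, and the log2 difference was -2.05 ± 0.20 (adjusted p = 4.3e-06). Its means at 13 h, 14 h and 16 h were below the level of the brightest bacterial control. TIC, a regulator of clock pace, showed a log2 difference of -0.27 ± 0.12 that was not called (adjusted p = 0.137). Of the 3 measured evening clock genes, 2 were lower, 0 were higher and the median log2 difference was -2.05, against -0.03 over all probe sets and a called share of 16.1% over all named genes. No morning clock gene of the list had a named probe set.

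Of 3 measured light-signalling genes, 2 rose at 12 h. HYH, a bZIP factor close to the light regulator HY5, had 289.5 and 279.5 at 12 h, against 35.7 and 46.9 at 0 h, and 30.5 and 23 on the 24 h arrays. Both 12 h arrays stood above the other 4, with a log2 difference of 2.96 ± 0.24 (adjusted p = 9.4e-07). The mean of HYH was higher still at 13 h, at 487, a value with no test here. AFR, an F-box protein of the phytochrome A far-red light pathway, had 348 and 487 at 12 h, against 21.9 and 17.5 at 0 h, and 3.7 and 56.8 on the 24 h arrays. Of its 4 arrays at 0 h and 24 h, 1 read above the brightest bacterial control, so that the fitted log2 difference of 4.20 ± 0.50 (adjusted p = 3.4e-05) rests on dim values there. FHL, which helps to carry phytochrome A into the nucleus, differed by -0.24 ± 0.22 and was not called (adjusted p = 0.539). The list thus had 2 of 3 genes higher, 0 lower, and a median of 2.96.

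**Figure D3:**
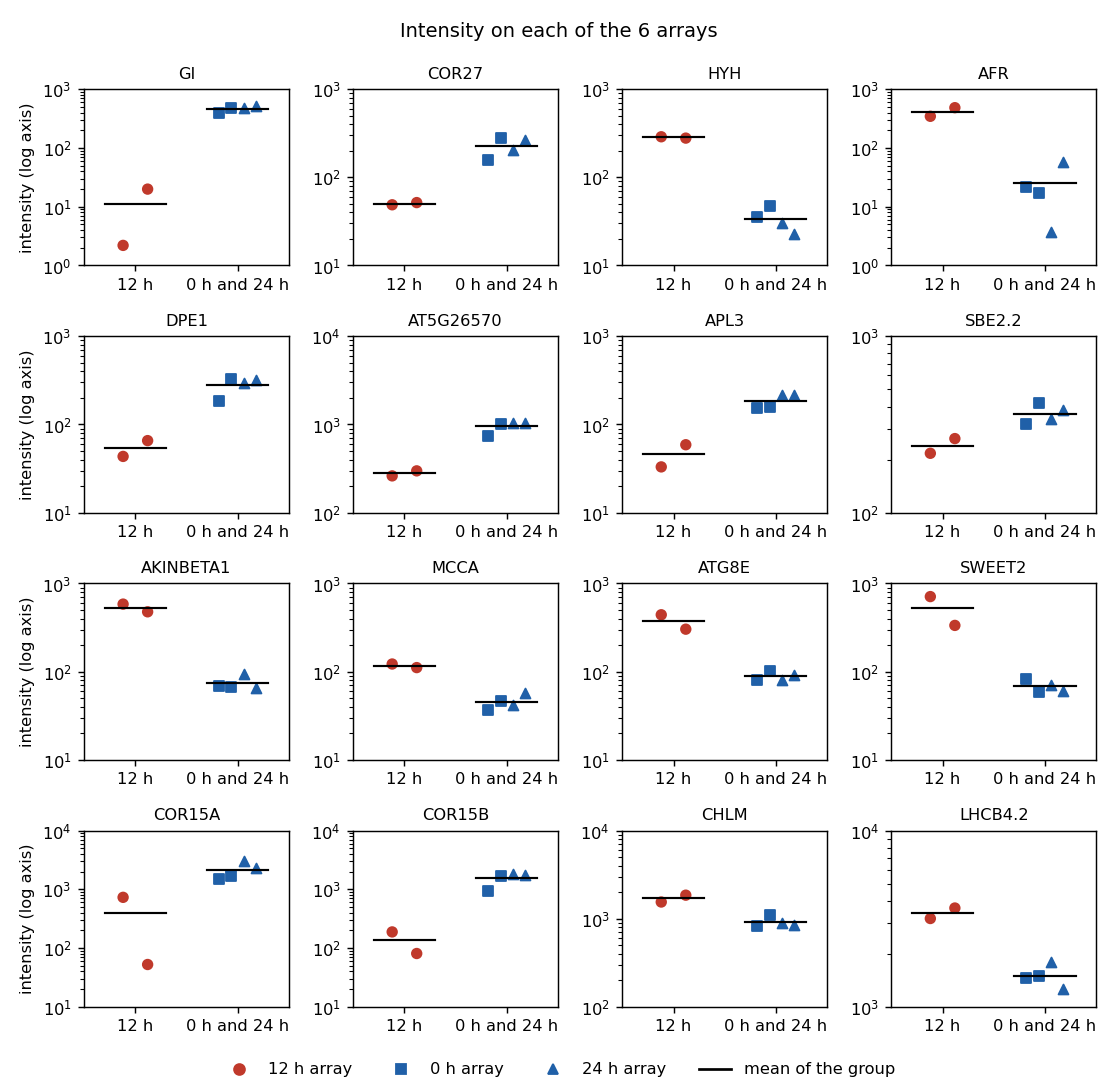
Intensity on a log axis for 16 genes, with the 2 arrays at 12 h left and the 2 arrays at 0 h (squares) and 2 at 24 h (triangles) right; the black bar is the mean of each group. No array at 12 h overlaps with the other 4 in any of the 16 genes, and the 12 h arrays of GI and of COR15A lie far apart from each other.

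Starch genes with a call were lower at 12 h, on the side of synthesis and of breakdown alike. DPE1, the plastid disproportionating enzyme that works on short maltodextrins from starch, gave 43.4 and 65.6 at 12 h, against 184 and 332 at 0 h, and 294 and 321 on the 24 h arrays. The highest 12 h value stood below the lowest value of the other arrays, and the log2 difference was -2.28 ± 0.30 (adjusted p = 7.5e-05). AT5G26570, the phosphoglucan water dikinase PWD that adds phosphate to the surface of starch grains before they are broken down, had 261 and 298 at 12 h, against 743 and 1012 at 0 h, and 1039 and 1034 on the 24 h arrays. The log2 difference was -1.75 ± 0.16 (adjusted p = 2.6e-06), with differences of -1.74 in replicate series 1 and -1.77 in series 2. DPE1 stood at 17.6 at 14 h, below the brightest bacterial control, AT5G26570 had its lowest mean at 16 h (159), and both had their highest mean at 24 h (307 and 1037).

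Other members of the breakdown list were not called. The α-amylase gene AMY1 differed by -0.30 ± 0.23 (adjusted p = 0.453) and AT4G24450, which carries the synonym ATGWD2, by -0.07 ± 0.19 (adjusted p = 0.86). The list of 4 had 2 genes lower, 0 higher and a median log2 difference of -1.03. On the side of synthesis, APL3, a large subunit of ADP-glucose pyrophosphorylase, the enzyme that commits glucose to starch, had 33 and 58.9 at 12 h, against 156 and 159.6 at 0 h, and 216 and 214 on the 24 h arrays. Its log2 difference was -1.96 ± 0.26 (adjusted p = 1.0e-04) with no overlap between the groups. SBE2.2, a starch branching enzyme, had 217 and 263 at 12 h, against 318 and 416 at 0 h, and 342 and 382 on the 24 h arrays, and differed by -0.59 ± 0.11 (adjusted p = 0.00188), the smallest called difference of the starch genes. APL4, another large subunit, was dim, with means of 9.75 at 12 h, 14.7 at 0 h and 21.9 at 24 h, and was not called (adjusted p = 0.0804). The synthesis list had 2 of 3 genes lower, 0 higher and a median of -0.74.

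The starch genes ran through the day at different hours. APL3 had its lowest mean at 12 h (46.0) and stood at 90.6 at 13 h and 151 at 14 h, while the means of DPE1 and AT5G26570 at these hours were below those at 12 h. SBE2.2 had its lowest mean at 8 h (231). Differences between these hours were not tested.

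**Figure D4:**
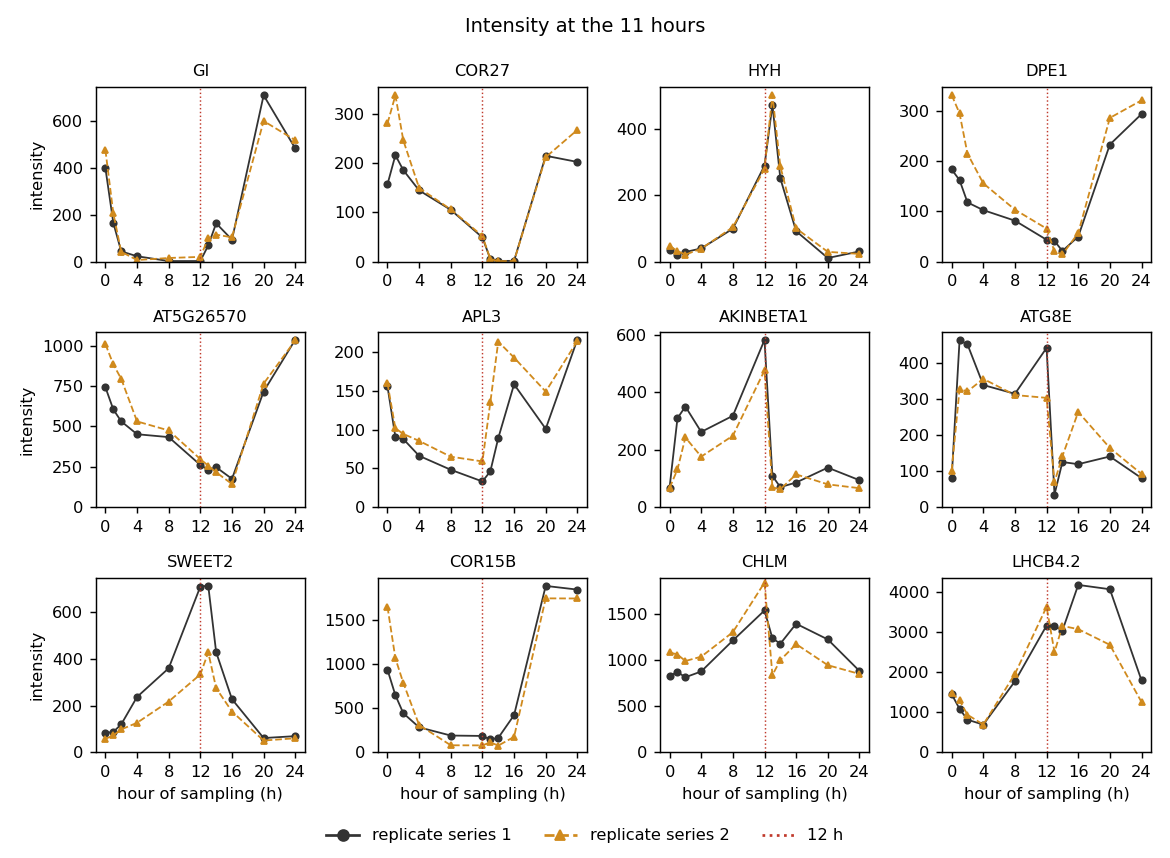
Intensity on a linear axis from 0 against the hour of sampling by source name for 12 genes. Replicate series 1 is shown as circles and series 2 as triangles, with a dotted line at 12 h. GI, COR27, DPE1, AT5G26570, APL3 and COR15B are low at 12 h and high at 0 h and 24 h, while HYH, AKINBETA1, ATG8E, SWEET2, CHLM and LHCB4.2 are high at 12 h.

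Neither of the measured sucrose synthesis genes was called. ATSPS4F, a sucrose phosphate synthase, had 492 and 627 at 12 h, against 612 and 564 at 0 h, and 500.1 and 774 on the 24 h arrays, and the groups overlapped (log2 difference -0.12 ± 0.18, adjusted p = 0.727). F2KP, which makes and breaks fructose 2,6-bisphosphate and so sets the flow into sucrose, had 703 and 628 at 12 h, against 602 and 459 at 0 h, and 677 and 491 on the 24 h arrays (log2 difference 0.27 ± 0.12, adjusted p = 0.161). Of these 2 genes 0 were called in limma, and 1 had an unadjusted p under 0.05.

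SWEET2 had the widest difference of the sugar transporters. This sugar carrier of the vacuole membrane gave 709.9 and 334 at 12 h, against 83.2 and 58.4 at 0 h, and 69.9 and 60.7 on the 24 h arrays. The 12 h arrays differed more from each other than the other 4 did and still stood above all of them, and the log2 difference was 2.78 ± 0.17 (adjusted p = 5.3e-08). SFP2, a sugar porter of the ERD6-like family, was higher by 0.99 ± 0.17 (adjusted p = 6.9e-04). Its relative SFP1 had 486 and 137 at 12 h, against 179 and 89.1 at 0 h, and 152 and 137 on the 24 h arrays, where the groups overlapped. The SFP1 call (log2 difference 0.92 ± 0.27, adjusted p = 0.0282) was lost with 4 of the 6 arrays left out in turn. Without the 12 h array of series 1 its log2 difference was 0.38. SWEET13, which loads sucrose for export, was lower by -0.65 ± 0.20 (adjusted p = 0.0348, and 0.36 without the 12 h array of series 2). SWEET14 was close to the level of the bacterial controls, with 14 and 2.7 at 12 h, against 26.9 and 10.5 at 0 h, and 30.4 and 14.8 on the 24 h arrays, so its call (adjusted p = 0.048, and 0.527 without the 12 h array of series 2) is given with no size. SWEET11, the brightest of the sucrose exporters measured, differed by 0.39 ± 0.22 and was not called (adjusted p = 0.273). Of 19 measured transporters, 3 were higher and 2 were lower, with a median log2 difference of -0.05.

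Among 10 measured genes known to respond to darkness and low sugar, 4 were called higher at 12 h and 1 lower. The calls of ETFQO and PPDK, both higher, and of ETFBETA, lower, did not hold with some single arrays left out, as given below. AKINBETA1, a regulatory subunit of the SnRK1 kinase that senses low energy, gave 583 and 477 at 12 h, against 67.9 and 66.4 at 0 h, and 93.6 and 65.7 on the 24 h arrays. Both 12 h values stood far above the other 4, and the log2 difference was 2.79 ± 0.23 (adjusted p = 9.4e-07). The mean of AKINBETA1 was 284 at 8 h and 88.5 at 13 h.

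MCCA, a subunit of methylcrotonyl-CoA carboxylase in leucine breakdown, had 122 and 111 at 12 h, against 36.2 and 46.1 at 0 h, and 41.2 and 57 on the 24 h arrays. MCCA did not overlap between the groups and was higher by 1.31 ± 0.18 (adjusted p = 1.3e-04). Its partner subunit MCCB differed by 0.30 ± 0.16 and IVD, an earlier enzyme of the same path, by -0.05 ± 0.19, and neither was called (adjusted p = 0.226 and 0.906). The electron transfer flavoprotein chain takes up the electrons from this path. Its oxidoreductase ETFQO was called higher (0.66 ± 0.21, adjusted p = 0.0371), a call that was lost with any 1 of the 6 arrays left out (highest adjusted p = 0.265). Its subunit ETFBETA was called lower (-0.74 ± 0.18, adjusted p = 0.0108, and 0.0892 without the 12 h array of series 1), and its other subunit ETFALPHA was not called (-0.04 ± 0.13, adjusted p = 0.885).

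PPDK, pyruvate phosphate dikinase, had 302 and 389.7 at 12 h, against 158 and 176 at 0 h, and 199 and 356 on the 24 h arrays. The groups of PPDK overlapped, and its call (0.69 ± 0.22, adjusted p = 0.0424) was lost with 5 of the 6 arrays left out in turn, with an adjusted p of up to 0.199. The enzyme gene D2HGDH and the transcription factor gene BZIP53 were not called (adjusted p = 0.488 and 0.315). Of the 10 measured genes of the list, 4 were higher, 1 was lower and 5 were not called, with a median log2 difference of 0.26. Over all named genes, 7.42% were higher and 8.71% were lower.

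ATG8E was the autophagy gene with the widest difference. ATG8 proteins are joined to the membrane that encloses the cargo of autophagy. ATG8E gave 441 and 303 at 12 h, against 79.4 and 101 at 0 h, and 80.2 and 91.7 on the 24 h arrays. The groups stood apart, with a log2 difference of 2.01 ± 0.29 (adjusted p = 1.7e-04). Its mean was already 395 at 1 h, and it was 51.9 at 13 h, its lowest of the day. ATG8F, the brightest of the family, had 1193 and 999.1 at 12 h, against 601 and 737 at 0 h, and 715 and 885 on the 24 h arrays, and was higher by 0.58 ± 0.14 (adjusted p = 0.0104), a call lost without the 12 h array of series 1 (log2 0.33, adjusted p = 0.23). The other 8 measured ATG genes were not called, among them APG8H (-0.01 ± 0.17) and ATG8D (-0.54 ± 0.19). The median over the 10 was 0.09.

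No photosystem subunit was called. Of the 24 measured subunits 0 were called in limma and 0 had an unadjusted p under 0.05, and their log2 differences ran from -0.24 to 0.26 with a median of 0.01. Most of these carry the names of genes of the plastid genome. Over all 69 probe sets that the RefSeq table places on the plastid genome, 0 were called, 0 had an unadjusted p under 0.05 and the median log2 difference was 0.01, while 16.2% of 13367 on the nuclear chromosomes were called. They were bright, with a median intensity of 1561, which puts most of them in the brightest class of all probe sets. psbA, the gene of the D1 protein of photosystem II, had 3179 and 3649.6 at 12 h, against 3563 and 3666 at 0 h, and 2199.9 and 3894 on the 24 h arrays, with no call (adjusted p = 0.889). The 15 measured ribosomal protein genes all carry the names of plastid genes, and 0 were called or had an unadjusted p under 0.05. The same held for the 4 Calvin cycle genes, of which RCA, which keeps Rubisco active, had the highest log2 difference, at 0.31 ± 0.19 (adjusted p = 0.306).

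Some nuclear genes for pigments and their proteins were higher. LHCB4.2, an antenna protein of photosystem II, gave 3167 and 3632 at 12 h, against 1455 and 1486 at 0 h, and 1798 and 1258 on the 24 h arrays. Every 12 h value was above every other value, and the log2 difference was 1.19 ± 0.19 (adjusted p = 4.1e-04). Its relatives LHCB4.1 (0.20 ± 0.19, adjusted p = 0.565) and LHCB4.3 (-0.29 ± 0.13, adjusted p = 0.132) were not called, and the difference between the relatives was not tested. CHLM, the methyltransferase of the chlorophyll branch, had 1544 and 1846 at 12 h, against 833 and 1088 at 0 h, and 886 and 854 on the 24 h arrays, and a log2 difference of 0.89 ± 0.18 (adjusted p = 0.00315). The CHLM call was lost without the 12 h array of series 2 (log2 0.75, adjusted p = 0.064). LYC, lycopene cyclase of the carotenoid path, had 664 and 489 at 12 h, against 316 and 331 at 0 h, and 314 and 285 on the 24 h arrays, and was higher by 0.86 ± 0.14 (adjusted p = 4.9e-04). PORB, which carries out the light-driven step of chlorophyll synthesis, had 622 and 631 at 12 h, against 1322 and 1101 at 0 h, and 1429.9 and 596 on the 24 h arrays, where the second 24 h array fell below both 12 h arrays and no call was made (adjusted p = 0.0709). Of 8 measured chlorophyll and haem genes, CHLM alone was called, and the median was 0.13.

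Of 4 measured cold-response genes, both that were called were lower at 12 h. COR15B, which encodes a stromal protein that protects chloroplast membranes in frost, gave 188 and 80.5 at 12 h, against 939 and 1654 at 0 h, and 1849.8 and 1749 on the 24 h arrays. The log2 difference was -3.56 ± 0.43 (adjusted p = 3.7e-05), and the groups did not overlap. COR15A, its neighbour on chromosome 2 and a close relative, gave 729 and 52.3 at 12 h, against 1508 and 1686 at 0 h, and 3026 and 2259 on the 24 h arrays. The 12 h arrays of COR15A were far apart, with log2 differences of -1.55 in replicate series 1 and -5.12 in series 2, and the fitted difference of -3.33 ± 0.69 (adjusted p = 0.00329) became -1.79 with no call (adjusted p = 0.118) without the 12 h array of series 2. COR47 and LTI30, dehydrins of the same response, were not called (adjusted p = 0.0503 and 0.159), and their groups overlapped. The list had 2 of 4 genes lower, 0 higher and a median of -2.27.

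Tubulin genes went in both directions. TUA6, an α-tubulin and the brightest of the list, gave 502 and 585 at 12 h, against 1445 and 1072 at 0 h, and 1378 and 896 on the 24 h arrays. The groups stood apart and TUA6 was lower by -1.11 ± 0.17 on the log2 scale (adjusted p = 2.7e-04). The β-tubulin gene TUB1 had 18.5 and 40.5 at 12 h, against 90.1 and 85 at 0 h, and 68.9 and 99.6 on the 24 h arrays, and a log2 difference of -1.49 ± 0.28 (adjusted p = 0.00178, and 0.0512 without the 12 h array of series 1). The β-tubulins TUB9 (-1.03 ± 0.12), TUB7 (-0.69 ± 0.11), TUB6 (-0.65 ± 0.13) and TUB5 (-0.57 ± 0.19) were also lower, TUB6 and TUB5 with an adjusted p of up to 0.0912 and 0.362 when 1 array was left out. TUA1, an α-tubulin known from pollen, was the exception, with 251 and 146 at 12 h, against 125 and 61.1 at 0 h, and 94.4 and 71.4 on the 24 h arrays, and a log2 difference of 1.14 ± 0.15 (adjusted p = 1.1e-04). The list had 6 of 9 genes lower and 1 higher, with a median of -0.65, and the actins ACT11 and ACT12 were not called.

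EXO, a gene of leaf growth that responds to brassinosteroids and to low carbon, gave 132 and 259 at 12 h, against 11.1 and 43.7 at 0 h, and 12.2 and 25.8 on the 24 h arrays. Both 12 h values were above the other 4. Of the 4 arrays at 0 h and 24 h, 1 read above the brightest bacterial control, and the fitted log2 difference was 2.96 ± 0.36 (adjusted p = 3.8e-05). EXO was higher at other hours, with means of 912 at 1 h and 843 at 13 h. EXGT-A3, also named XTH27, cuts and rejoins xyloglucan in the wall. It had 1408 and 1128 at 12 h, against 305 and 256 at 0 h, and 221 and 284 on the 24 h arrays, and its log2 difference was 2.24 ± 0.18 (adjusted p = 9.8e-07). EXLA2 was called higher with 5.3 and 39.7 at 12 h, against 2.8 and 9.9 at 0 h, and 2.2 and 2.6 on the 24 h arrays, at or below the brightest bacterial control on all arrays but 1, so no size is given (adjusted p = 0.0341, and 0.53 without the 12 h array of series 2). EXPA8, an expansin that loosens walls, had 12 h values above the other 4 but missed the threshold (log2 difference 1.24 ± 0.41, adjusted p = 0.0513). Of 28 measured genes on the wall list, EXO and EXLA2 were called, both higher, against 16.1% over all named genes and 3.12% and 6.24% in both dimmest classes. The median was -0.10, and 17 of the 28 had means under 30 in both groups. EXGT-A3 carries another symbol in the RefSeq table and was not counted in that list.

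Hormone and stress regulators were called singly. The auxin repressor gene IAA18 had 198 and 272 at 12 h, against 135 and 151 at 0 h, and 160.1 and 146 on the 24 h arrays, and was higher by 0.64 ± 0.13 (adjusted p = 0.00356, and 0.0889 without the 12 h array of series 2). IAA29 was called lower (-0.91 ± 0.29, adjusted p = 0.0427), as was the gibberellin receptor gene GID1A (-0.80 ± 0.25, adjusted p = 0.035). The IAA29 call was lost with 3 of the 6 arrays left out in turn, and its log2 difference was -0.52 without the 12 h array of series 1. The GID1A call was lost with 5 of the 6, and its log2 difference was -0.42 without the 12 h array of series 2. Of the 11 measured IAA and GH3 genes on the auxin list, 1 was higher and 1 was lower. The zinc finger repressor STZ, also known as ZAT10, had 489 and 136 at 12 h, against 80.7 and 126 at 0 h, and 89.7 and 118 on the 24 h arrays. Its call (log2 difference 1.31 ± 0.42, adjusted p = 0.0413) was lost with 4 of the 6 arrays left out in turn. Without the 12 h array of series 1 the log2 difference was 0.35. ORA47, an AP2 regulator of jasmonate synthesis, had 128 and 44 at 12 h, against 28.2 and 30.7 at 0 h, and 49.9 and 37.5 on the 24 h arrays, and its call (1.00 ± 0.24, adjusted p = 0.00871) was likewise lost without that array (log2 0.51, adjusted p = 0.227). WRKY22, a defence regulator, was called higher (0.69 ± 0.22, adjusted p = 0.0445) and lost its call with 5 of the 6 arrays left out in turn (adjusted p up to 0.185). ORA47 and WRKY22 were the called members among 7 measured ERF and WRKY genes, whose median was 0.51, and of 6 cytokinin response regulators 0 were called and 1 had an unadjusted p under 0.05.

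Enzymes that glycosylate, oxidise or conjugate small molecules were called in both directions. Of 47 measured UGT glycosyltransferases, 3 were higher and 7 were lower, with a median of -0.03, where 7.42% of all named genes were higher and 8.71% were lower. UGT88A1 gave 610.2 and 761 at 12 h, against 239.7 and 174 at 0 h, and 258 and 205 on the 24 h arrays, and its log2 difference was 1.63 ± 0.15 (adjusted p = 2.6e-06). UGT74D1, which can glucosylate auxins, was higher by 1.72 ± 0.22 and UGT76C2, which inactivates cytokinins, by a fitted 1.94 ± 0.36, with 1 of its 4 arrays at 0 h and 24 h above the brightest bacterial control. UGT84A3, which makes hydroxycinnamate glucose esters, had 22.7 and 22.9 at 12 h, against 81.5 and 117 at 0 h, and 114 and 169 on the 24 h arrays, and was at least 4.0-fold lower (log2 difference -2.17 ± 0.22, adjusted p = 8.7e-06). UGT80B1, which glucosylates sterols, was lower by -1.32 ± 0.16 (adjusted p = 3.8e-05). UGT76E11, UGT85A5, UGT71B1, UGT71C1 and UGT78D3 were lower with calls that leaving out 1 array took away, and UGT71C1 and UGT78D3 stood below the brightest bacterial control on all 6 arrays.

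Among 22 measured cytochromes P450, CYP71B22 was higher (1.46 ± 0.28, adjusted p = 0.00169, and 0.0639 without the 12 h array of series 2), and CYP71B26, CYP71B28, CYP71B6 and CYP78A9 were lower. The calls of CYP71B26, CYP71B6 and CYP78A9 were lost without the 12 h array of series 2 (adjusted p = 0.0754, 0.149 and 0.0502). CYP71B28 had 101 and 124 at 12 h, against 165 and 213 at 0 h, and 226 and 283 on the 24 h arrays, and a log2 difference of -0.93 ± 0.10 (adjusted p = 1.6e-05), and it kept its call with each array left out. Of 20 glutathione transferases and redoxins, GSTU18 (0.88 ± 0.12, adjusted p = 1.3e-04) and TRXF2, a thioredoxin that switches on Calvin cycle enzymes in the light, were higher. TRXF2 had 554 and 505 at 12 h, against 324 and 359 at 0 h, and 364 and 271 on the 24 h arrays (log2 difference 0.69 ± 0.17, adjusted p = 0.0118, and 0.122 without the 12 h array of series 1). GRXC2, a glutaredoxin, was lower (-0.69 ± 0.15, adjusted p = 0.00475, and 0.122 without the 12 h array of series 2), as was the dim GSTU26, which lost its call with 5 of the 6 arrays left out in turn (adjusted p up to 0.29). The median of that list was -0.24.

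**Figure D5:**
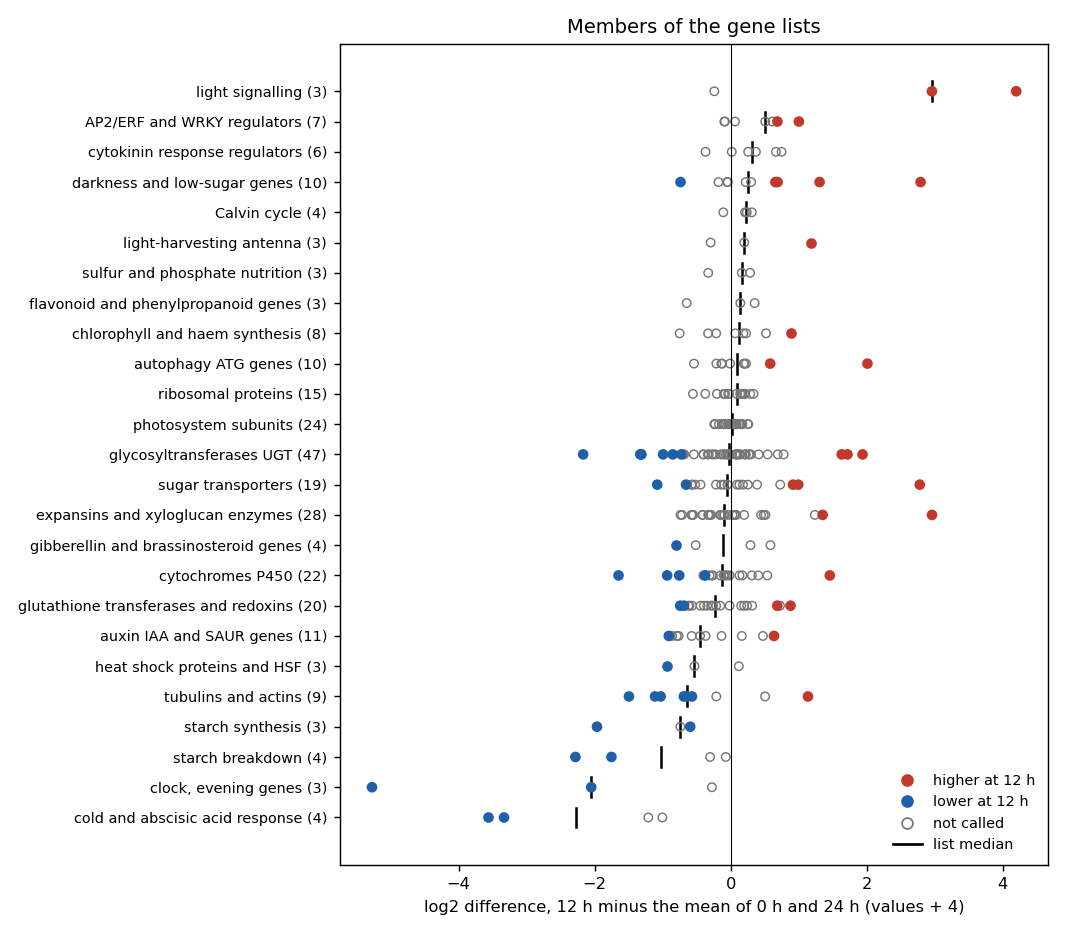
Log2 difference of 12 h minus the mean of 0 h and 24 h for every measured member of the gene lists with at least 3 measured genes, the tissue markers apart, 1 row per list with the number measured in brackets. Filled points are called, open points are not, and the black bar is the list median, which runs from -2.27 for cold and abscisic acid genes to 2.96 for light signalling. These 2 medians rest on 4 of 30 listed cold genes and 3 of 33 listed light-signalling genes.

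Several of the widest differences belonged to genes that the annotation used here gives by locus code only. AT2G20670 gave 386 and 413 at 12 h, against 4.8 and 3.4 at 0 h, and 5.1 and 2.4 on the 24 h arrays. It was at least 13.7-fold higher at 12 h, with a log2 difference of 5.68 ± 0.46 (adjusted p = 9.4e-07). AT2G41250 gave 1536 and 1419 at 12 h, against 46.6 and 41.5 at 0 h, and 38.8 and 38.1 on the 24 h arrays. Every one of its other arrays was well below 12 h, the log2 difference was 5.04 ± 0.20 (adjusted p = 5.2e-10), and its mean was 122 at 8 h and 266 at 13 h. AT1G68440 had 853 and 1076 at 12 h, against 38.8 and 41.4 at 0 h, and 17.9 and 49.4 on the 24 h arrays, and a log2 difference of 4.63 ± 0.23 (adjusted p = 5.1e-09). These 3 were among 15 genes with the widest rises, whose log2 differences ran from 3.62 to 5.68. AT5G54130, one of them, has a second probe set that gave 3.98, against 4.01 for the one described.

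On the lower side, AT1G07050 gave 7.5 and 8 at 12 h, against 337 and 485 at 0 h, and 400.4 and 436 on the 24 h arrays. It was at least 14.1-fold lower at 12 h, with a log2 difference of -5.14 ± 0.24 (adjusted p = 3.8e-09), and its means at 13 h, 14 h and 16 h were also below that control, with 429 at 20 h. AT4G16146 gave 27.9 and 28.7 at 12 h, against 640.1 and 531 at 0 h, and 682 and 596 on the 24 h arrays, and was at least 20.9-fold lower (log2 difference -4.25 ± 0.15, adjusted p = 1.6e-10). Its 12 h arrays differed little from each other. AT4G30650 gave 181 and 79.2 at 12 h, against 1628 and 2020.5 at 0 h, and 2216 and 2204 on the 24 h arrays, and a log2 difference of -4.02 ± 0.30 (adjusted p = 4.2e-07), and the gene next to it, AT4G30660, differed by -3.57 ± 0.20 (adjusted p = 1.9e-08). The 15 genes with the widest falls ran from -3.45 to -5.27.

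Further genes with a symbol came from several paths of metabolism. AAH, the allantoate amidohydrolase of purine nitrogen recycling, gave 295 and 349 at 12 h, against 62.9 and 70.2 at 0 h, and 61.6 and 64.6 on the 24 h arrays, with no overlap and a log2 difference of 2.24 ± 0.13 (adjusted p = 2.4e-08). GR1, a glutathione reductase, had 687 and 507 at 12 h, against 154 and 187 at 0 h, and 194 and 155 on the 24 h arrays, and was higher by 1.76 ± 0.15 (adjusted p = 2.0e-06). AAPT2, an aminoalcoholphosphotransferase of phospholipid synthesis, was higher by 1.72 ± 0.21 and bHLH121, a regulator of iron uptake, by 1.65 ± 0.12. SIS, salt induced serine rich in the RefSeq table, was at least 4.2-fold higher (181 and 83.9 at 12 h, against 16.9 and 13.5 at 0 h, and 27.8 and 24.1 on the 24 h arrays). SAMDC, S-adenosylmethionine decarboxylase of polyamine synthesis, was one of the brightest called genes, with 3964 and 3631 at 12 h, against 2562 and 1872 at 0 h, and 2489.6 and 2379 on the 24 h arrays, and a log2 difference of 0.72 ± 0.13 (adjusted p = 0.00159).

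Among the lower genes, CCL, described in the RefSeq table as CCR-like, was bright and gave 499 and 311 at 12 h, against 2953 and 2917 at 0 h, and 2953 and 2568 on the 24 h arrays. Its log2 difference was -2.84 ± 0.21 (adjusted p = 3.9e-07), and its mean was lower still at 13 h (151). PDC2, a pyruvate decarboxylase of fermentation, had 82.5 and 63.3 at 12 h, against 298 and 391 at 0 h, and 347 and 503 on the 24 h arrays, and was lower by -2.32 ± 0.18 (adjusted p = 7.5e-07). Cpn60beta2, a chloroplast chaperonin, had 103 and 193 at 12 h, against 579.5 and 605 at 0 h, and 357 and 421 on the 24 h arrays. It was lower at 12 h by -1.74 ± 0.22 (adjusted p = 7.0e-05). PIFI, named for the rise of chlorophyll fluorescence after illumination, had 982 and 779.7 at 12 h, against 1764 and 1815 at 0 h, and 2093 and 2127 on the 24 h arrays (log2 difference -1.15 ± 0.14, adjusted p = 3.8e-05). The chloroplastic lipocalin gene CHL was lower by -1.27 ± 0.16, the phosphomannomutase gene PMM by -1.14 ± 0.14, the β-glucosidase gene BGLU44 by -2.72 ± 0.21 and the actin-binding LIM proteins WLIM1 and WLIM2a by -1.40 ± 0.15 and -1.62 ± 0.25.

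In the RefSeq table, 5814 pairs of neighbouring nuclear protein-coding genes both had a named probe set. In 214 pairs (3.68%) both genes were called. The called share of single named genes, 16.1%, is not a measure to set this against, because a pair needs both of its genes called. Whether neighbours were called together more often than other genes was not tested. Of the 214 pairs, 61 had both genes higher, 73 had both lower and 80 had them in opposite directions. In 30 pairs both genes were called in the same direction at 2-fold or more. COR15B and COR15A, AT4G30650 and AT4G30660, and MAMI and AT5G54130 were such pairs, as were AFR and AT2G24550, with log2 differences of 4.20 and 3.27. Without the 12 h array of series 2, COR15A was not called, as given above. Each chromosome from 1 to 5 had 14.5% to 16.9% of its probe sets called.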

How the data were processed

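Leaf RNA of 22 samples had been hybridised to Affymetrix ATH1 arrays. The authors deposited linear intensity values per probe set. With the extreme 2% at either end trimmed off, every array has a mean near 100, so the authors had scaled the arrays to 1 level, with software not given in the sources used here. Array signals carry no counts, so the number of arrays limits the precision. Of 22810 probe sets, 64 controls were left out, and 22746 were transformed to log2(value + 4), which understates the differences of dim genes.

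All 22 arrays entered 1 two-sided fit in limma 3.58.1 (R 4.3.3, with lmFit, contrasts.fit and eBayes with a trend), with a mean for each hour and the replicate series as a block. It left 10 residual degrees of freedom, and p-values were adjusted over 22746 probe sets by the Benjamini-Hochberg method. Every adjusted p is from this fit unless another setting is named. A difference is 12 h minus the mean of 0 h and 24 h, with its standard error (SE). The replicate numbers in the labels pair the samples: deviations from the hour means correlated at 0.249 to 0.340 for the 3 pairs of 0, 12 and 24 h and at 0.136 to 0.451 for all 55 pairs of hours. The labels call the samples of an hour biological replicates and do not say how the 2 series were separated. The p-values measure the spread between such samples over all 22 arrays, and not that at 0, 12 and 24 h alone.

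In the platform annotation, 13513 probe sets stand for 1 gene and 503 for several, and 8730 are unnamed here. Of the 13513, 13436 matched the RefSeq gene table (assembly TAIR10.1) by gene ID, and 1557 of 13356 genes have a symbol other than the locus code. Where a gene has several probe sets, the brightest over all arrays stands for it. RefSeq gives the symbol PWD to a pair of loci, so these are given by locus code. Members and the 42 gene lists (27 with at least 3 measured genes, 285 genes in all) were chosen with earlier results of these data known.

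Genes were named by rule: the 15 widest differences per direction and the 6 brightest genes per direction among genes called, with no overlap and a mean of at least 100 on the higher side, all members of the clock, starch, sucrose and low-sugar lists, and up to 6 of each other list. After values were seen, 25 genes per direction with a symbol and every called list member were added. All 222 such probe sets have the plain suffix, with none marked as shared between transcripts. The morning clock, flowering, sucrose breakdown, nitrogen, aquaporin, cyclin and pollen and seed lists had no named probe set. Alternatives were no replicate block, pseudocounts of 1 and 40, a filter to the upper 60% by intensity, quantile normalization, only the 6 arrays, equal array medians, eBayes without a trend, array weights and each of the 6 arrays left out.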

Additional observations from a re-analysis of the deposited data

Results flagged for a closer look

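In the 4 arrays of 0 h and 24 h, 9 of 222 named genes had 1 array far from the other 3, by the gap to its nearest neighbour over the whole range on the log2 scale. About 1 in 20 would be flagged among independent arrays. These arrays are 0 h and 24 h in paired series and all genes share them, so no conclusion about chance is drawn. On the array at 0 h of series 1, COR15B read 939, against 1654 to 1849.8 on the other 3 (gap over range 0.835), and AT5G26570 read 743, against 1012 to 1039 (0.921). On the array at 0 h of series 2, EXLB1 read 216, against 95.9 to 101.8 (0.927), and EXLA2 read 9.9, against 2.2 to 2.8 (0.886). On the array at 24 h of series 1, AKINBETA1 read 93.6, against 65.7 to 67.9 (0.908), and psbA read 2199.9, against 3563 to 3894 (0.844). On the array at 24 h of series 2, AT2G39920 read 319.5, against 193.8 to 209 (0.846), CCL read 2568, against 2917 to 2953 (0.912), and APL4 read 27.9, against 14.2 to 16.0 (0.832). For the called genes among these, COR15B, AT5G26570, AKINBETA1, AT2G39920, CCL and EXLA2, the array that stood apart did not reach the side of the 12 h arrays, except in EXLA2, whose groups overlap.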

How the results depend on the processing

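No called direction reversed under any alternative. The difference itself is the same without the block, with the filter by intensity, only the 6 arrays, eBayes without a trend and array weights. In those settings no direction could reverse. Of 127 named genes called, 86 kept their call in all 15 alternatives. Without the replicate block, which pairs the samples by series, 2695 probe sets were called against 4147, of them 1359 lower, and all 2695 were among the 4147. At 12 h against 0 h the count without the block was 1951 and at 12 h against 24 h it was 1955, and at 24 h against 0 h it stayed at 0. With 1 array left out, 2656 to 3548 probe sets were called, 1283 to 1738 higher and 1357 to 1869 lower, with 0 in the opposite direction, and a lone array at an hour is then assumed to vary like the other hours. With 1 array left out, 12 h against 0 h gave 1831 to 3130, 12 h against 24 h gave 1967 to 3066, and 24 h against 0 h gave 0 to 25. The other 8 alternatives gave 3025 to 4271. Equal array medians moved the share called higher to 55.6%, against 46.7%. Only the 6 arrays, with 0 h and 24 h as 1 group, gives no value for the other 3 comparisons. Of the dimmest of 5 equal classes by intensity 3.12% were called, and whether signal over background limits these was not tested. Promoter motifs were not run, because no promoter sequences were used here.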
